A study of Mus musculus with 138 samples.

Results

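The genes described here are the nucleolar and ribosomal RNA (rRNA) processing genes, chosen by a rule on names. It took every gene of the deposited tables whose symbol starts with Polr1, or with Utp, Rrp, Nop, Nol or Noc and a digit. Nolc1, Imp3, Imp4, Rrs1, Bop1, Pes1, Wdr12, Fbl, Dkc1, Gar1, Nhp2, Ncl, Npm1 and Ubtf were added, and pseudogene names left out. The rule found 53 of the 25900 genes and was set with earlier results of these data known. Their polyadenylated RNA was followed in mouse embryos at the 2-cell stage. In the first experiment, embryos labelled Smarca5 +/- (mat KO) came from mothers that lacked Smarca5 and wild-type males, and were set against Smarca5 +/+ embryos; these groups are called maternal deletion and wild type below, although the sample titles of both carry the words matKO females. Smarca5 encodes an ATPase that slides nucleosomes. In the second experiment, wild-type zygotes received an antibody to SMARCA5 (a-Smarca5) or IgG in the TrimAway system, in which the ubiquitin ligase TRIM21 directs an antibody-bound protein to degradation, or were not injected, and RNA was taken at least a day after the injection. The Cre line used for the maternal deletion, the strain and the mothers' ages are not given in the sources used here, and each replicate number stands for a pool of embryos from several matings or injections.

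Comparisons used the libraries with at least 100000 total counts, 1 library per plate well: 22 wild type (8 of replicate 1 and 14 of replicate 2), 28 maternal deletion (13 and 15), 15 uninjected (10 of replicate 1 and 5 of replicate 3), 20 IgG (10 of replicate 1 and 10 of replicate 3) and 31 anti-SMARCA5 (17, 7 and 7 of replicates 1, 2 and 3). Total counts ran from 109007 to 12004992. Smarca5 itself had a median of 375 CPM (counts per 1000000 counts of the TMM-scaled library size) in wild type and 98.3 in the maternal deletion, and Trim21 was above 3 counts in 30 of 31 anti-SMARCA5 libraries but in only 8 of 20 IgG libraries, all of replicate 3. The oocyte marker Gdf9 set 1 maternal deletion library apart: well A04 of replicate 2 had 23.7 CPM, the lowest of its group, whose median was 4847 CPM, while wild type had a median of 54.1 CPM. Well A04 also held the group's highest Smarca5 level (337 CPM), but well H09 of replicate 1 came close (332 CPM, with Gdf9 at 1110 CPM). Wild-type wells G05 and H05 of replicate 2 had the highest Gdf9 of their group (644 and 297 CPM), with well C07 of replicate 1 next at 285 CPM. Anti-SMARCA5 well C02 of replicate 2 had no Trim21 count. Counts of changed genes are therefore also given without 4 libraries (A04, G05, H05 and C02 of replicate 2). The 3 wells without an embryo held 453 to 1875 counts, of which 0 to 22 fell on these genes.

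Ribosome production starts in the nucleolus, where RNA polymerase I copies the rDNA repeats into a long precursor. Small nucleolar ribonucleoproteins (snoRNPs) then modify the precursor, the box C/D type by 2'-O-methylation and the box H/ACA type by pseudouridylation, and large assemblies fold and cut it into the RNAs of the small and the large ribosomal subunit. The newly fertilised mouse egg carries compact nucleolus precursor bodies and ribosomes inherited from the oocyte, and rRNA synthesis resumes as the embryonic genome is switched on. Of the 53 genes, 6 encode RNA polymerase I subunits or its factor UBTF, 3 box C/D and 4 box H/ACA proteins, 20 small subunit factors, 14 large subunit factors and 3 abundant nucleolar proteins with several roles. The remaining 3 (Nol3, Nol4 and Nol7) match the name rule, but Nol3 and Nol4 are not ribosome assembly genes, and no assembly role was assigned to Nol7.

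Promoter sequence was at hand for 42 of the 53 genes in RefSeq (GRCm38.p6), as the 250 bases before the annotated start. Letter strings that recur in promoters were looked up on both strands: CACGTG, the E box that MYC and related factors bind; CCGGAAG, a core of ETS factor sites, which reads CTTCCGG on the other strand; GGGCGG, the Sp1 box; and the strings of the CCAAT and TATA boxes, the latter searched as TATAAA. None of these strings contains another, and each was counted once per gene. The E box was present in 14.29% of the 42 genes and in 10.63% of the 6134 genes with a promoter among those tested in the maternal deletion comparison. The ETS core was present in 23.81% against 17.53%, the Sp1 box in 69.05% against 65.06%, the CCAAT string in 33.33% against 42.37% and the TATA string in 11.9% against 7.581%. A match describes these letters only. Below are the 250 upstream bases of the gene with the largest fall in the maternal deletion (Nop2), of another gene with an E box that was below the wild-type median in every maternal deletion library (Nol11), of a strongly lowered polymerase I gene with neither string (Polr1e), and of a gene that did not pass the test although it has an ETS core (Nol10). They are written 5' to 3' on each gene's own strand, with E box and ETS core in capitals.

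Nop2, chr6:125131633-125131882, + strand: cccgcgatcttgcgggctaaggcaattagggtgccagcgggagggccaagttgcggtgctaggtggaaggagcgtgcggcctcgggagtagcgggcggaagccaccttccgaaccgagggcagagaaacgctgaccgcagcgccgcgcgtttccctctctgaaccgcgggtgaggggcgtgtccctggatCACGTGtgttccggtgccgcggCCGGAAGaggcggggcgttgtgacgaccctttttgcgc
Nol11, chr11:107189382-107189631, - strand: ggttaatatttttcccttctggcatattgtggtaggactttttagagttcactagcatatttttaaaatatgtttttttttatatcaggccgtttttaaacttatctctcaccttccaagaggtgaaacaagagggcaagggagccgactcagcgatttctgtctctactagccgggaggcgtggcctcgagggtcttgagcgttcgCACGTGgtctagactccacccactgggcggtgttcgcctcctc
Polr1e, chr4:45018359-45018608, + strand: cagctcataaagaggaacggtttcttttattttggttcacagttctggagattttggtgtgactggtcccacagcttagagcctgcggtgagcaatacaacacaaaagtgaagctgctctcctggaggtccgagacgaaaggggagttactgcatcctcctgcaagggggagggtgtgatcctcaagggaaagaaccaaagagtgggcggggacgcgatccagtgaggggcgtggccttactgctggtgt
Nol10, chr12:17348243-17348492, + strand: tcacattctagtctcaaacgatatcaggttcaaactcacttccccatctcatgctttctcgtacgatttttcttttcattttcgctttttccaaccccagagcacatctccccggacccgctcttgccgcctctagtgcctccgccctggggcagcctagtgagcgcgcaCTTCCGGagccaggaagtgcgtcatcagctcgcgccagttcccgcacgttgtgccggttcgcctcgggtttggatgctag

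With the base before the start counted as -1, the E box began at position -60 and the ETS core at -38 of Nop2, the E box at -43 of Nol11 and the ETS core at -80 of Nol10. Lowered genes were thus found with both strings, with 1 of them and with neither, and an ETS core was also present where no change passed the test.

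The first comparison asked how these genes stood in 2-cell embryos whose mothers lacked Smarca5. In maternal deletion embryos 45 of the 51 tested members were lower than in wild type and none was higher, with a median log2 fold change of -2.05 over the 51. Nol3 and Nol4 did not reach the minimum count for testing. All 51 fold changes were negative, while over all 8518 genes tested the median was 0.18 and 45.8% were negative. By edgeR's quasi-likelihood test with Benjamini-Hochberg adjustment, 26.4% of all genes tested were called lower and 30.3% higher. Values are shares of a library's RNA, so fewer cells with a transcript and less of it in each cell cannot be told apart.

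**Figure D1:**
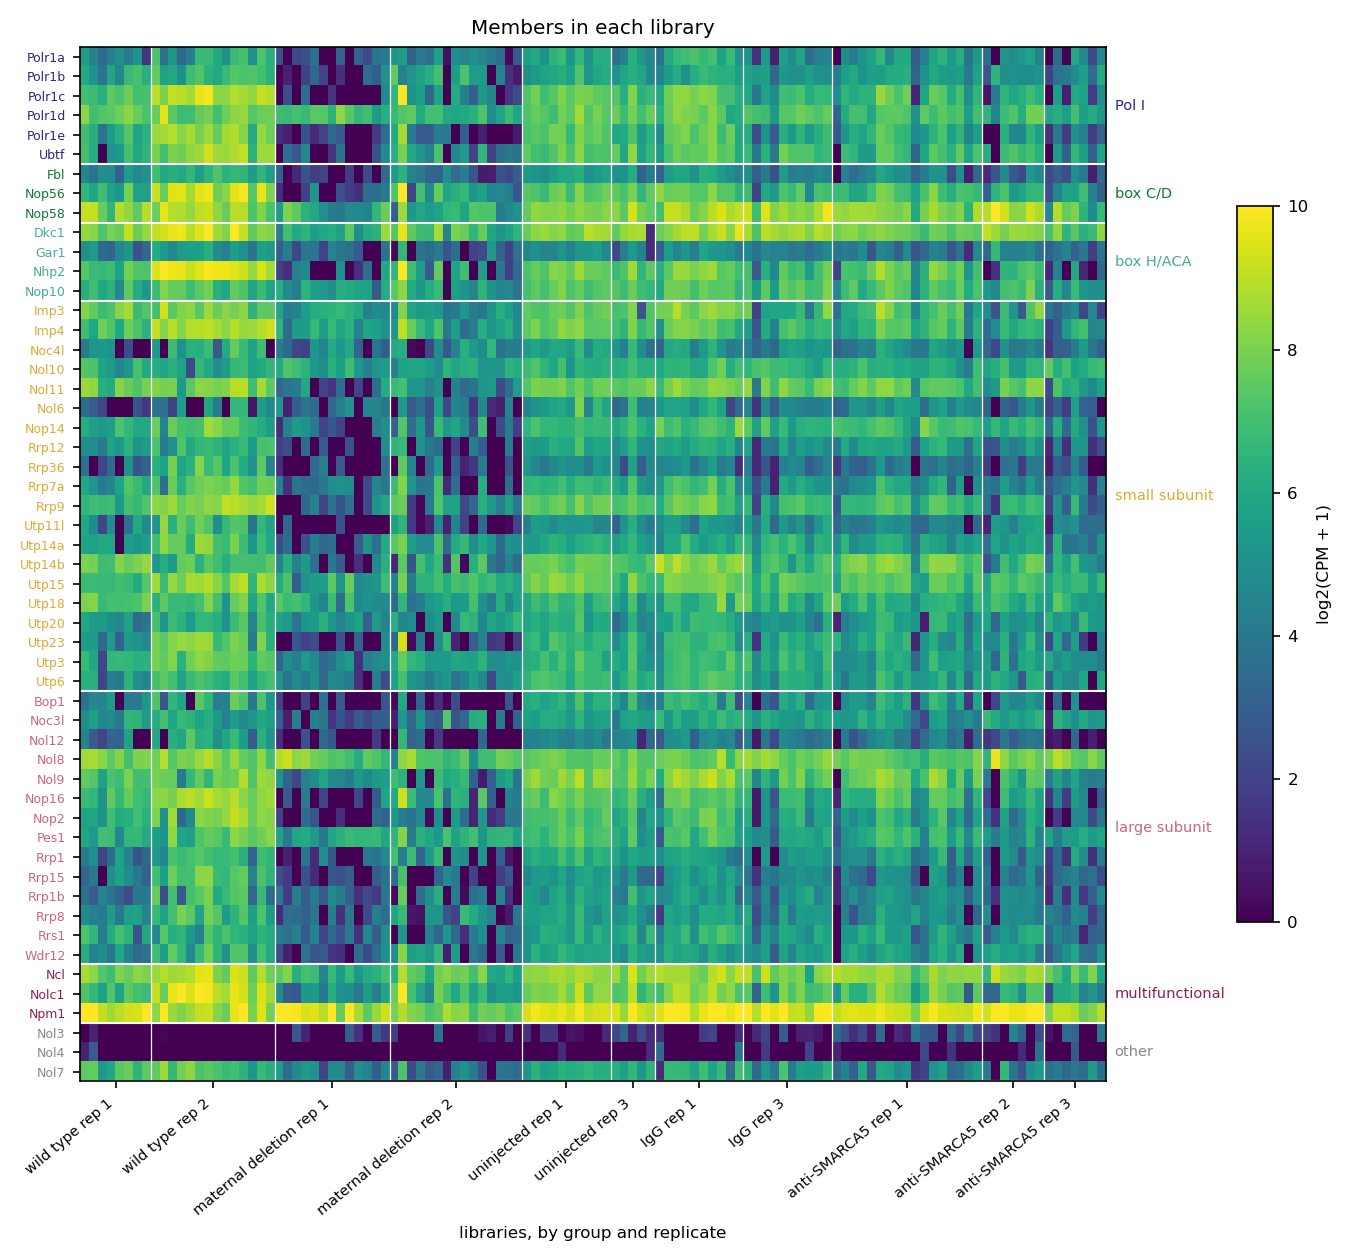
Level of each of the 53 members (rows, coloured by role) in each of the 116 libraries (columns, by group and replicate number), as log2(CPM + 1) on the colour scale from 0 to 10, where levels above 10 share the top colour. Most rows are dark in the 28 maternal deletion columns, apart from 1 bright column of replicate 2 (well A04), and rows of Nol3 and Nol4 are dark in all groups.

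All 6 genes of RNA polymerase I and its factors fell. Polr1e, a subunit found in polymerase I only (chr4:45018583-45036565, GRCm38), measured 13.2, 235 and 473 CPM (lowest, median and highest) in wild type and 0, 1.88 and 397 CPM in the maternal deletion. The groups overlapped, but 27 of 28 maternal deletion libraries were below the wild-type median and 23 below the lowest wild-type library. The log2 fold change was -3.46 ± 0.66 (adjusted p = 2e-05), a 10.99-fold lower level. Ubtf, which encodes the factor that coats the rDNA and opens it for the polymerase, measured 0, 234 and 621 CPM in wild type and 0, 11.9 and 255 CPM in the maternal deletion. One wild-type library had no Ubtf count, so that the ranges overlapped, and 27 of 28 maternal deletion libraries were under the wild-type median, with a log2 fold change of -2.86 ± 0.56 (adjusted p = 3.2e-05). Polr1c, a subunit shared with RNA polymerase III, changed by -2.75 ± 0.66 (adjusted p = 0.00045), and its partner Polr1d, also shared, by -1.03 ± 0.22 (adjusted p = 0.00013). Polr1d was never at 0 in the maternal deletion, where it measured 28.8, 108 and 322 CPM, against 115, 209 and 762 CPM in wild type. Its fall was the smallest of the 6, and its call was lost without replicate 2 (-0.68, adjusted p = 0.073). The largest subunit, Polr1a, changed by -1.99 ± 0.49 (adjusted p = 0.0006), and the next largest, Polr1b, by -1.56 ± 0.57 (adjusted p = 0.017). The Polr1b call was lost without replicate 1 (-0.94, adjusted p = 0.23) and among libraries of at least 500000 counts (-1.35, adjusted p = 0.12).

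All 3 box C/D genes fell. Fbl, which encodes the methyltransferase fibrillarin, measured 7.84, 55.2 and 149.8 CPM in wild type and 0, 4.71 and 85.1 CPM in the maternal deletion. Counts were at or under 3 in 11 of the 28 maternal deletion libraries and in 1 of the 22 wild-type libraries, and the log2 fold change was -2.48 ± 0.49 (adjusted p = 4.2e-05). Its scaffold partner Nop58 measured 92.1, 399 and 821 CPM in wild type and 6.97, 55.9 and 369 CPM in the maternal deletion. All 28 maternal deletion libraries lay below the wild-type median, and 18 below the lowest wild-type library, with a log2 fold change of -2.11 ± 0.32 (adjusted p = 4.4e-07). The other scaffold protein gene, Nop56, changed by -2.09 ± 0.61 (adjusted p = 0.0034); its single high value in the maternal deletion, 1527 CPM, came from well A04.

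All 4 box H/ACA genes fell as well. Dkc1, which encodes the pseudouridine synthase dyskerin, measured 142, 356 and 1185 CPM in wild type and 16.3, 91.6 and 815 CPM in the maternal deletion. In 19 of 28 maternal deletion libraries it was below the lowest wild-type library, and the log2 fold change was -1.75 ± 0.32 (adjusted p = 1e-05). Nhp2, whose protein binds the snoRNA beside dyskerin, showed a wider split. It measured 54.9, 596 and 1032 CPM in wild type and 0, 10.002 and 1835 CPM in the maternal deletion, the highest value being well A04, and changed by -2.39 ± 0.67 (adjusted p = 0.0025). Gar1 changed by -1.45 ± 0.49 (adjusted p = 0.01) and Nop10 by -0.99 ± 0.36 (adjusted p = 0.015). The calls of Gar1 and Nop10 were lost without replicate 1 (adjusted p = 0.10 and 0.12) and among libraries of at least 500000 counts (adjusted p = 0.059 for both), and that of Nop10 also without replicate 2 (adjusted p = 0.13).

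Of the 20 small subunit genes, 16 fell, with a median over the 20 of -1.94. Utp11l (chr4:124678160-124693600) fell most, from 0, 63.0 and 337 CPM in wild type to 0, 0.0594 and 92.8 CPM in the maternal deletion, where 17 of 28 libraries had at most 3 counts. The 3 lowest wild-type libraries had no more than 3 counts either, and the log2 fold change was -3.42 ± 0.68 (adjusted p = 3.9e-05). Imp3, a partner of the U3 snoRNP that base-pairs with the precursor, measured 87.1, 201 and 644 CPM in wild type and 13.4, 41.4 and 278 CPM in the maternal deletion. It was below the lowest wild-type value in 24 of 28 maternal deletion libraries, with a log2 fold change of -2.17 ± 0.28 (adjusted p = 1.4e-08). Rrp9, the U3-specific protein, measured 39.2, 276 and 604 CPM in wild type and 0, 14.4 and 217 CPM in the maternal deletion, and changed by -2.80 ± 0.51 (adjusted p = 1e-05). All 28 maternal deletion libraries were under its wild-type median. Imp4 changed by -2.05 ± 0.33 (adjusted p = 1.1e-06), Nop14 by -2.17 ± 0.48 (adjusted p = 0.00016) and Utp14a, which activates a helicase of the processome, by -1.51 ± 0.47 (adjusted p = 0.0052).

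The 4 small subunit genes that did not pass the test were Noc4l, Nol6, Nol10 and Utp20. Utp20 measured 10.1, 57.0 and 169 CPM in wild type and 0, 39.2 and 109 CPM in the maternal deletion, with a log2 fold change of -0.69 ± 0.39 (adjusted p = 0.13). Its value turned to 0.067 without replicate 2 and passed the test under other scalings (adjusted p = 0.030 with total counts). For Nol10 the 2 groups overlapped nearly fully, with 3.79, 65.2 and 160.2 CPM in wild type, 18.3, 56.4 and 149 CPM in the maternal deletion and a log2 fold change of -0.25 ± 0.27 (adjusted p = 0.43). In 7 and 12 of the 22 wild-type libraries Noc4l and Nol6 had no more than 3 counts, which limits what could be detected for them.

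Of the 14 large subunit genes, 13 fell, with a median over the 14 of -2.13. Nop2 (chr6:125131883-125144753), which encodes a methyltransferase of the large subunit RNA and whose promoter is printed above, had the largest fall of all members. It measured 10.03, 167 and 546 CPM in wild type and 0, 4.08 and 45.0 CPM in the maternal deletion. Every maternal deletion library, A04 included, was below the wild-type median, and 16 were below the lowest wild-type library. The log2 fold change was -4.16 ± 0.54 (adjusted p = 1.6e-08), 17.8-fold lower. The 3 genes of the PeBoW complex, which is needed for large subunit precursor cleavage, moved unequally: Bop1 changed by -3.83 ± 0.74 (adjusted p = 2.4e-05), Wdr12 by -1.53 ± 0.58 (adjusted p = 0.021) and Pes1 by -0.80 ± 0.28 (adjusted p = 0.015). Bop1 had at most 3 counts in 20 of 28 maternal deletion and 5 of 22 wild-type libraries. Pes1 was above 3 counts in all 28 maternal deletion libraries, and its call was lost without either replicate (-0.86 without replicate 1 and -0.28 without replicate 2). The Wdr12 call was lost without replicate 1 (-1.22, adjusted p = 0.17) and among libraries of at least 500000 counts (-1.50, adjusted p = 0.085). Rrs1, which helps the 5S ribonucleoprotein join the large subunit, measured 5.04, 84.5 and 169 CPM in wild type and 0, 9.82 and 36.9 CPM in the maternal deletion. Every maternal deletion library was under its wild-type median, and it changed by -2.62 ± 0.47 (adjusted p = 8.7e-06). Rrp15 changed by -3.43 ± 0.67 (adjusted p = 3.2e-05). The exception was Nol8, at -0.47 ± 0.24 (adjusted p = 0.093).

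**Figure D2:**
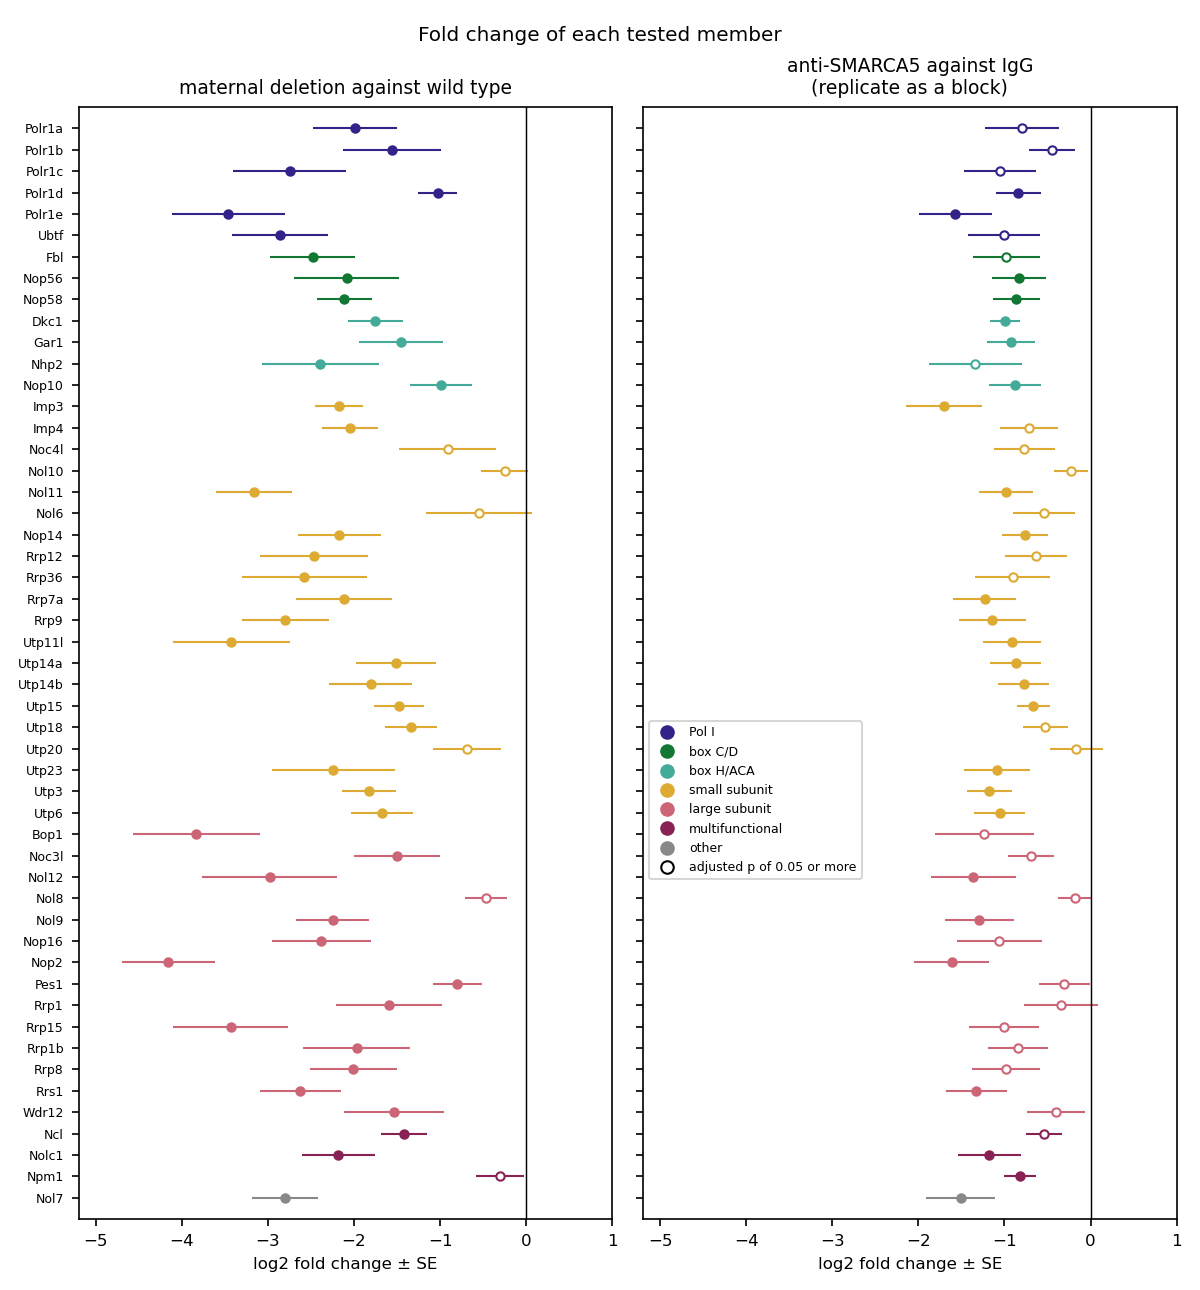
Log2 fold change ± SE (edgeR) of each of the 51 tested members, coloured by role, in maternal deletion against wild type (left) and in anti-SMARCA5 against IgG with the replicate number as a block (right); filled points passed an adjusted p of 0.05. All points lie left of 0 in both panels, with 45 filled on the left and 26 on the right.

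The abundant nucleolar proteins did not move as one. Nolc1, a snoRNP chaperone, measured 49.7, 388 and 1132 CPM in wild type and 5.71, 45.1 and 1019 CPM in the maternal deletion, and changed by -2.18 ± 0.42 (adjusted p = 2.6e-05). Ncl, which encodes nucleolin, measured 116, 342 and 815 CPM in wild type and 21.7, 109 and 475 CPM in the maternal deletion. It was below the wild-type median in 27 of 28 maternal deletion libraries and changed by -1.42 ± 0.26 (adjusted p = 1.5e-05). Npm1, which encodes the nucleolar chaperone nucleophosmin, measured 212, 539.5 and 1207 CPM in wild type and 121, 309.9 and 1940.2 CPM in the maternal deletion. Its groups overlapped widely and its log2 fold change of -0.30 ± 0.27 (adjusted p = 0.35) did not pass the test. A fit that blocked on replicate gave -0.62 ± 0.24 (adjusted p = 0.021), which passed. Npm1 has near-identical copies in the genome, and how the authors counted reads that match several places is not given in the sources used here. Nol7 measured 38.7, 142 and 369 CPM in wild type and 0, 15.0 and 150.1 CPM in the maternal deletion, and changed by -2.80 ± 0.38 (adjusted p = 4.5e-08).

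**Figure D3:**
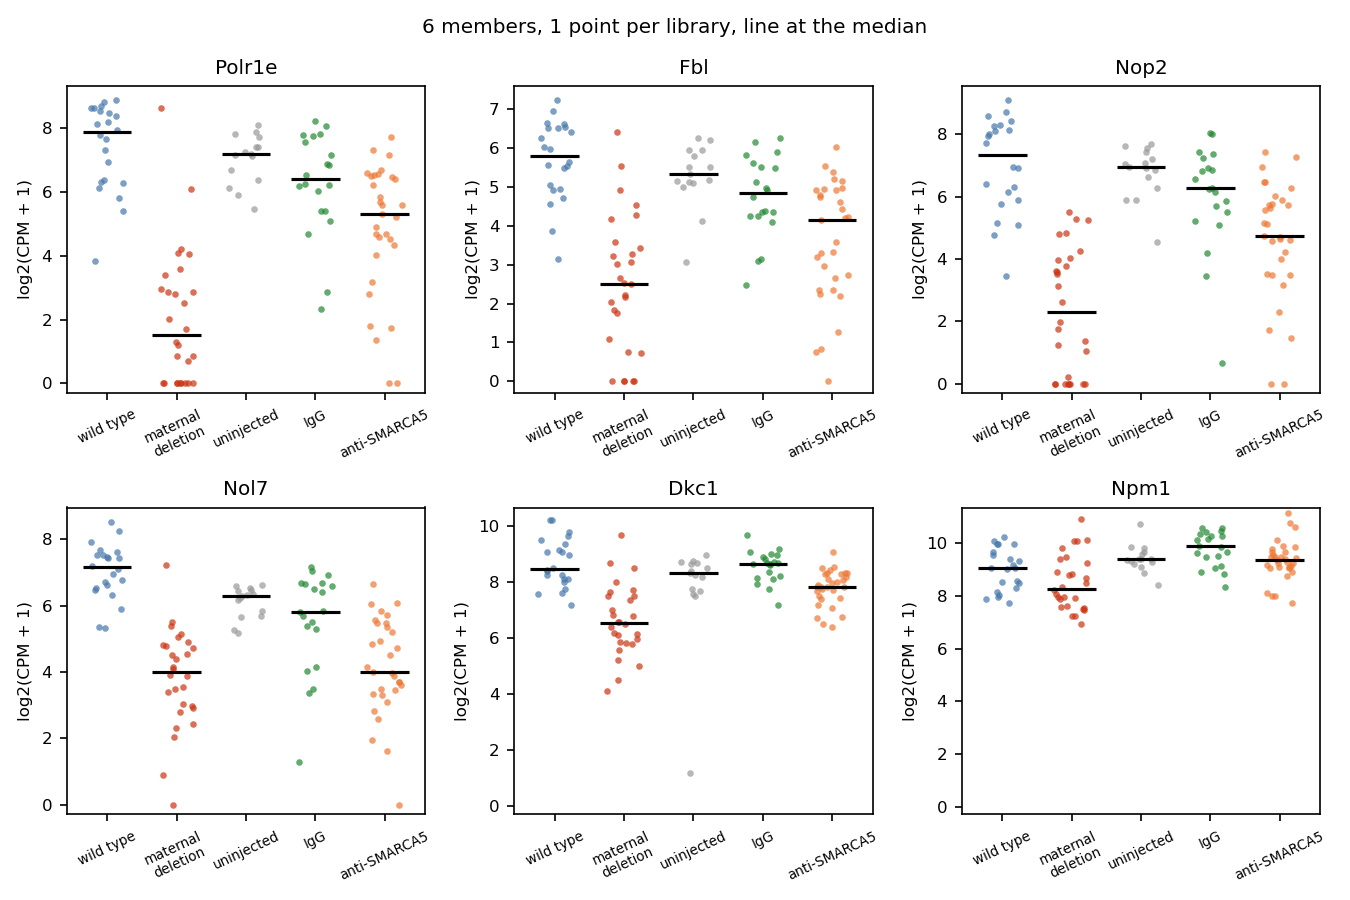
Levels of 6 members, as log2(CPM + 1), with 1 point per library and a line at each group's median. Polr1e, Fbl and Nop2 reach 0 in maternal deletion libraries and have their lowest median there, Nol7 has about equal medians in the maternal deletion and anti-SMARCA5 groups (15.0 CPM each), and Npm1 stays above 100 CPM in all libraries.

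The mean of log2(CPM + 1) over the 53 members summarised each library. It was 6.42 ± 0.81 (SD, n = 22) in wild type and 3.84 ± 0.96 (SD, n = 28) in the maternal deletion. Of the 28 maternal deletion libraries, 27 lay between 2.48 and 5.57, and well A04 lay at 7.13, within the wild-type range of 4.82 to 7.62. The level also differed between the collections of 1 genotype: wild type averaged 5.57 ± 0.46 (SD, n = 8) in replicate 1 and 6.90 ± 0.51 (SD, n = 14) in replicate 2, and the maternal deletion 3.37 ± 0.56 (SD, n = 13) and 4.24 ± 1.06 (SD, n = 15). The lanes of replicates 1 and 2 also differed, and effects of lane and of collection cannot be told apart. The difference between the groups was -2.21 within replicate 1, -2.66 within replicate 2 and -2.73 without wells A04, G05 and H05 of replicate 2.

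**Figure D4:**
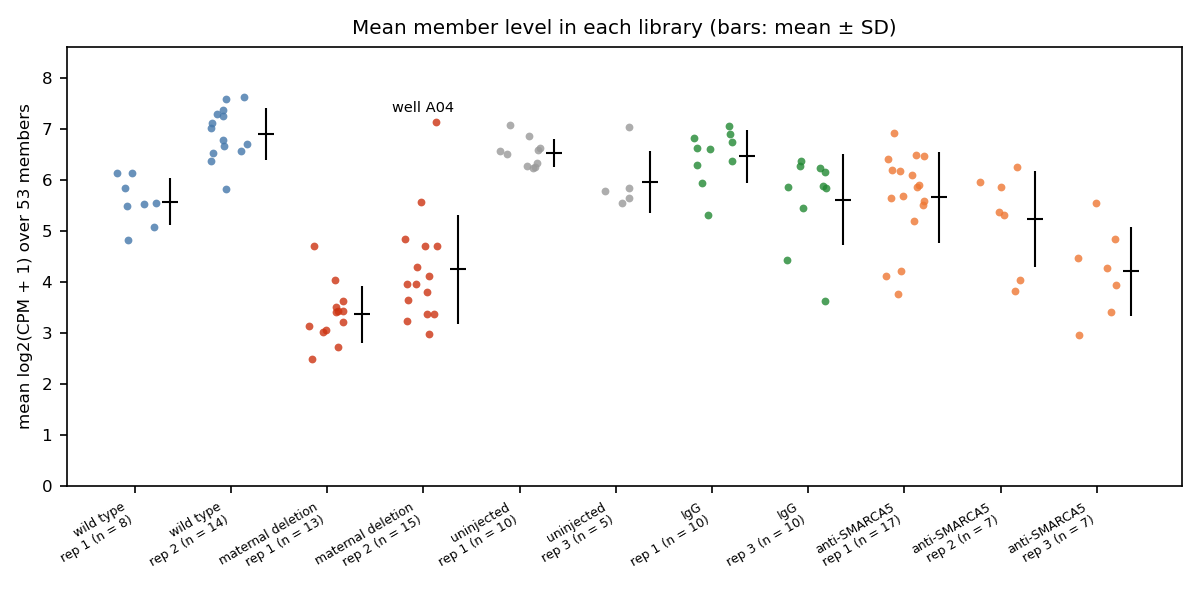
Mean log2(CPM + 1) over the 53 members in each library, by group and replicate number; bars give the mean ± SD of each set. Maternal deletion libraries lie between 2.48 and 5.57 except well A04 at 7.13, and anti-SMARCA5 libraries spread from 2.95 to 6.91.

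Within replicate 1 alone (8 against 13 libraries), 27 of 36 tested members fell, where 20.2% of all genes tested were called lower. Within replicate 2 alone (14 against 15), 36 of 51 fell, against 15.7% of all genes. No member rose in either. An interaction test of whether the fold change differed between the replicates called 0 of 51 members and 65 of 8518 genes (0.763%), with 8 members at an unadjusted p under 0.05. Without wells A04, G05 and H05 of replicate 2, the interaction test still called 0 of 50 members but 1060 of 8380 genes (12.6%). At an unadjusted p under 0.05 there were 12 of the 50 members. In the comparison of the groups without them, 45 of 50 tested members fell (28.1% of all genes) with a median of -2.33.

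Summed markers of the oocyte and of the 2-cell stage moved with the group. The summed level of 9 oocyte genes had a median of 1214 CPM (246 to 4680) in wild type and 11464 CPM (656 to 35788) in the maternal deletion. The summed level of 14 genes of the 2-cell stage had a median of 1392 CPM (849 to 2296) in wild type and 333 CPM (88.5 to 2761) in the maternal deletion. Within that list Obox6 had medians of 519 and 27.3 CPM. Tcstv1 went the other way, with medians of 41.4 and 108 CPM, while every other gene of the list had a lower median in the maternal deletion. The part of the oocyte and 2-cell lists in the fall of the members was not tested. The summed level of 10 cumulus and granulosa cell genes had medians of 123.1 CPM (7.84 to 386) in wild type and 32.4 CPM (2.40 to 381) in the maternal deletion. Nr5a2 and Amhr2 had the highest medians of the list in wild type: that of Nr5a2 was 47.8 CPM in wild type and 9.25 in the maternal deletion, and that of Amhr2 66.3 and 0 CPM. The other 8 genes had medians from 0 to 1.94 CPM in both groups, with Foxl2, Fshr, Inha, Has2, Ptx3 and Amh at 0. The summed level of 8 blastocyst genes had medians of 60.9 CPM (14.2 to 201) in wild type and 76.5 CPM (3.43 to 1118) in the maternal deletion. Within that list Krt18 had medians of 0 and 16.9 CPM, Krt8 0 and 4.02 CPM and Tfap2c 59.2 and 18.8 CPM, and the other 5 genes were at 0 in both. The part of these 2 lists was not tested either. Total counts moved with the group too, with medians of 545264.5 in wild type and 1618485.5 in the maternal deletion, and among libraries of at least 500000 counts 38 of 51 members fell, where 19.2% of all genes tested were called lower.

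Other genes of ribosome assembly outside the name rule were taken from a list by role, of which 103 were tested: 89 fell and 2 rose, with a median of -2.19. Of all genes tested in this comparison, 26.4% were called lower and 30.3% higher. All 9 tested genes of polymerase I initiation and termination fell. Cd3eap, which encodes another polymerase I subunit, had the largest fall, from a median of 45.6 CPM in wild type to 0 in the maternal deletion (log2 fold change -4.87 ± 0.66, adjusted p = 3.3e-08), and all 28 maternal deletion libraries were under the wild-type median. Among other small subunit genes 31 of 35 fell and 1 rose. Ddx49, an RNA helicase, fell most (-3.20 ± 0.72, adjusted p = 0.00022), and the kinase gene Riok1 rose (0.79 ± 0.27, adjusted p = 0.012). Among other large subunit genes 36 of 40 fell and none rose, led by the helicase gene Ddx54 (-3.85 ± 0.71, adjusted p = 1.5e-05). Of 13 nuclear exosome genes 9 fell, with C1d at -3.52 ± 0.59 (adjusted p = 3.0e-06), and Exosc8 rose by 0.57 ± 0.24 (adjusted p = 0.042). Of 6 snoRNP assembly genes 4 fell, with Tgs1, which adds the snoRNA cap methyl groups, at -3.41 ± 0.64 (adjusted p = 1.8e-05).

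The second comparison asked how the same genes stood after the antibody to SMARCA5 was given to the zygote, with IgG as the control. In anti-SMARCA5 embryos 3 of 51 tested members were lower than in IgG and none was higher, where 1.30% of all 10447 genes tested were called lower. All 51 fold changes were again negative, with a median of -0.59, against 0.04 over all genes, of which 48.0% were negative. At an unadjusted p under 0.05 there were 18 of 51 members and 2762 of 10447 genes. Without well C02 it was again 3 of 51, where 2.24% of all genes were called lower. With the replicate number as a block, 26 of 51 members fell and none rose, with a median of -0.90, where 13.6% of all genes were called lower. Replicate 2 gave 7 anti-SMARCA5 libraries but no IgG or uninjected library among those used. Without the block they were set against controls of other replicates, and with it they did not inform the difference between the groups.

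The 3 genes were Utp3, Dkc1 and Nol7. Utp3, a small subunit processome factor, measured 32.8, 79.6 and 191 CPM in uninjected, 26.9, 94.6 and 189.6 in IgG and 8.80, 41.0 and 118 in anti-SMARCA5 embryos. Of 31 anti-SMARCA5 libraries 29 were below the IgG median, and the log2 fold change was -1.06 ± 0.24 (adjusted p = 0.018), or -1.17 ± 0.26 (adjusted p = 0.0025) with the block. Dkc1 measured 1.26, 319 and 502 CPM in uninjected, 145, 404 and 811 in IgG and 82.3, 228 and 536 in anti-SMARCA5 embryos. It was below the IgG median in 30 of 31 libraries with a log2 fold change of -0.72 ± 0.18 (adjusted p = 0.026) without and -0.99 ± 0.17 (adjusted p = 0.00059) with the block. Nol7 measured 34.8, 77.2 and 97.2 CPM in uninjected, 1.42, 55.5 and 142 in IgG and 0, 15.0 and 101 in anti-SMARCA5 embryos. The groups overlapped over nearly their whole ranges, and the log2 fold change was -1.29 ± 0.36 (adjusted p = 0.041), or -1.51 ± 0.40 (adjusted p = 0.0074) with the block. Without replicate 1, when IgG of replicate 3 was set against anti-SMARCA5 of replicates 2 and 3, none of the 3 passed, and neither did any of the 9402 genes tested (0% called lower, 1210 genes and 6 members at an unadjusted p under 0.05). The fold changes were then -1.06 for Utp3, -0.51 for Dkc1 and -1.19 for Nol7 (adjusted p = 0.39, 0.42 and 0.39). Nol7 and Dkc1 also missed the threshold without replicate 3 (adjusted p = 0.080 and 0.058), and Nol7 with total counts as the scaling (adjusted p = 0.071). Over the alternatives the adjusted p ran from 0.0017 to 0.39 for Utp3, from 0.00059 to 0.42 for Dkc1 and from 0.0074 to 0.39 for Nol7.

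By role, the members called with the block were 2 of 6 polymerase I genes, 2 of 3 box C/D genes, 3 of 4 box H/ACA genes, 12 of 20 small subunit genes, 4 of 14 large subunit genes, 2 of 3 abundant nucleolar genes and Nol7. Imp3 had the largest of these changes: it measured 2.93, 215 and 498 CPM in IgG and 3.03, 59.8 and 507 in anti-SMARCA5 embryos, with a log2 fold change of -0.90 ± 0.43 (adjusted p = 0.17) without and -1.71 ± 0.44 (adjusted p = 0.0067) with the block. Nop2 measured 0.585, 76.1 and 264 CPM in IgG and 0, 25.5 and 170.0 in anti-SMARCA5 embryos with a log2 fold change of -1.12 ± 0.43 (adjusted p = 0.099) without and -1.61 ± 0.44 (adjusted p = 0.0082) with the block. Polr1e changed by -1.05 ± 0.43 (adjusted p = 0.12) without and -1.57 ± 0.43 (adjusted p = 0.0081) with the block. Npm1, which did not pass in the maternal deletion without the block, measured 329, 945 and 1555 CPM in IgG and 211, 658 and 2282 in anti-SMARCA5 embryos with a blocked log2 fold change of -0.82 ± 0.19 (adjusted p = 0.0032). Among the members that did not pass with the block were Ubtf at -1.01 ± 0.42 (adjusted p = 0.064), Fbl at -0.98 ± 0.38 (adjusted p = 0.052), Ncl at -0.54 ± 0.21 (adjusted p = 0.053), Wdr12 at -0.40 ± 0.34 (adjusted p = 0.36) and Utp20 at -0.17 ± 0.31 (adjusted p = 0.7).

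The collections were also looked at one by one. In replicate 1 alone (10 IgG against 17 anti-SMARCA5), 1 of 51 members fell (0.343% of all genes) with a median of -0.60. In replicate 3 alone (10 against 7), 16 of 51 fell (9.54% of all genes) with a median of -1.21. Both splits were added after the data were seen. The interaction test between these replicates called 0 of 51 members and 37 of 10100 genes (0.366%), with 8 members at an unadjusted p under 0.05, so a difference between collections was not shown for any single member. Over the 53 members the mean log2 level was 6.46 ± 0.52 (SD, n = 10) in IgG and 5.66 ± 0.89 (SD, n = 17) in anti-SMARCA5 embryos of replicate 1, and 5.61 ± 0.90 (SD, n = 10) and 4.20 ± 0.87 (SD, n = 7) in replicate 3. IgG libraries of replicate 1 had no Trim21 count, and 8 of 10 IgG libraries of replicate 3 had more than 3. In replicate 3, IgG wells A04, B03, E03, F03 and H03 held 553 to 2073 CPM of Trim21. Wells C03, D03 and G03 held 4.12 to 19.1 CPM, and A03 and B04 none. The IgG control thus differed between the collections and within replicate 3, and the part of this in the result was not tested. The summed oocyte genes had medians of 1556 CPM (1013 to 10548) in IgG and 2004 CPM (979 to 14208) in anti-SMARCA5 embryos, and the summed genes of the 2-cell stage 1112 CPM (128 to 6522) and 1043 CPM (48.4 to 3089). The summed blastocyst genes had medians of 71.4 CPM (20.0 to 167) in IgG and 99.9 CPM (25.5 to 323) in anti-SMARCA5 embryos, with Krt8 at 0.289 and 9.44 CPM, Krt18 at 3.33 and 13.7, Sox2 at 2.57 and 11.11, Gata6 at 1.92 and 7.22 and Tfap2c at 35.1 and 31.03. The summed cumulus and granulosa cell genes had medians of 116 CPM (29.0 to 295) and 91.2 CPM (10.6 to 202). The part of these lists was not tested.

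Against uninjected embryos, 21 of 51 members fell in anti-SMARCA5 embryos and none rose, with a median of -0.83, where 10.4% of all 10750 genes were called lower and the median of all genes was 0.13. With the block 34 of 51 fell (14.6% of all genes), in replicate 1 alone 8 of 51 (4.50%) with a median of -0.65, and in replicate 3 alone 17 of 49 (11.5%) with a median of -1.50; both splits were added after the data were seen. Without well C02 it was 21 of 51 (10.5%). This comparison shares its anti-SMARCA5 libraries with the comparison to IgG. The 5 largest falls without the block were those of Nop2 at -1.50 ± 0.42 (adjusted p = 0.0086), Nol7 at -1.43 ± 0.34 (adjusted p = 0.003), Polr1e at -1.43 ± 0.42 (adjusted p = 0.012), Rrp7a at -1.39 ± 0.35 (adjusted p = 0.0041) and Nol6 at -1.34 ± 0.40 (adjusted p = 0.013). Nop2 measured 22.3, 122 and 206 CPM in uninjected and 0, 25.5 and 170.0 in anti-SMARCA5 embryos, and only the anti-SMARCA5 group reached 0. Nol6, which did not pass in the maternal deletion, measured 9.22, 38.9 and 271 CPM in uninjected and 0, 18.8 and 57.7 in anti-SMARCA5 embryos. Rrp7a, an early small subunit factor, measured 30.3, 93.1 and 157 CPM in uninjected and 0, 24.8 and 146 in anti-SMARCA5 embryos. None of the 21 passed without replicate 1, when 5 uninjected libraries of replicate 3 were set against 14 anti-SMARCA5 libraries of replicates 2 and 3. Of all 10544 genes tested then, 1 was called and none lower (0%). At an unadjusted p under 0.05 there were 14 of 52 members and 2261 of 10544 genes.

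IgG and uninjected embryos were compared as the control for the injection itself. IgG libraries of replicate 1 had no Trim21 count, so this does not control for Trim21 given with an antibody in both collections. No member and no gene among 9915 passed the test (0% of all genes), with 5 of 51 members and 1440 genes at an unadjusted p under 0.05 and a member median of -0.21. DESeq2 called 207 genes (2.09%) and no member. The members' mean log2 level was 6.34 ± 0.48 (SD, n = 15) in uninjected and 6.04 ± 0.84 (SD, n = 20) in IgG embryos. The ranges of 5.54 to 7.08 and 3.63 to 7.06 overlapped, but IgG wells A04 and B04 of replicate 3 (3.63 and 4.42) lay below every uninjected library.

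The 2 experiments share no library, so their directions could be set side by side. Of the 51 members tested in both, all 51 had a negative fold change in both; over all 8238 genes tested in both, 3251 did. The fold change was smaller in size in anti-SMARCA5 against IgG than in the maternal deletion for 49 of 51 members (7039 of 8238 genes), and the median ratio of the fold changes was 0.32 over the members and 0.30 over all genes. Of the 45 members called lower in the maternal deletion and the 3 called lower in anti-SMARCA5 embryos, 3 were shared; with the block in the second experiment it was 25 of 45 and 25 of 26. Over all genes tested in both, the calls shared were 93 of 2241 and 93 of 121 without the block, and 1092 of 2241 and 1092 of 1297 with it. A fit over both experiments tested the difference between the effects. It called 20 of 51 members, all more negative in the maternal deletion, where 8.73% of all 12035 genes were called in that direction. It called 10 of 51 with the block (3.68% of all genes) and 27 of 51 without the 4 libraries named above (10.6%). The largest differences were Bop1 at -3.23 ± 0.90 (adjusted p = 0.007), Nop2 at -3.03 ± 0.69 (adjusted p = 0.00096), Utp11l at -2.90 ± 0.74 (adjusted p = 0.0032), Rrp15 at -2.63 ± 0.77 (adjusted p = 0.01) and Nol11 at -2.61 ± 0.52 (adjusted p = 0.00015). With the block Bop1 no longer passed (-2.52, adjusted p = 0.060). The experiments were also sequenced on different lanes and have different controls, so the difference between a maternal deletion and a protein degraded in the zygote cannot be told apart from these.

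**Figure D5:**
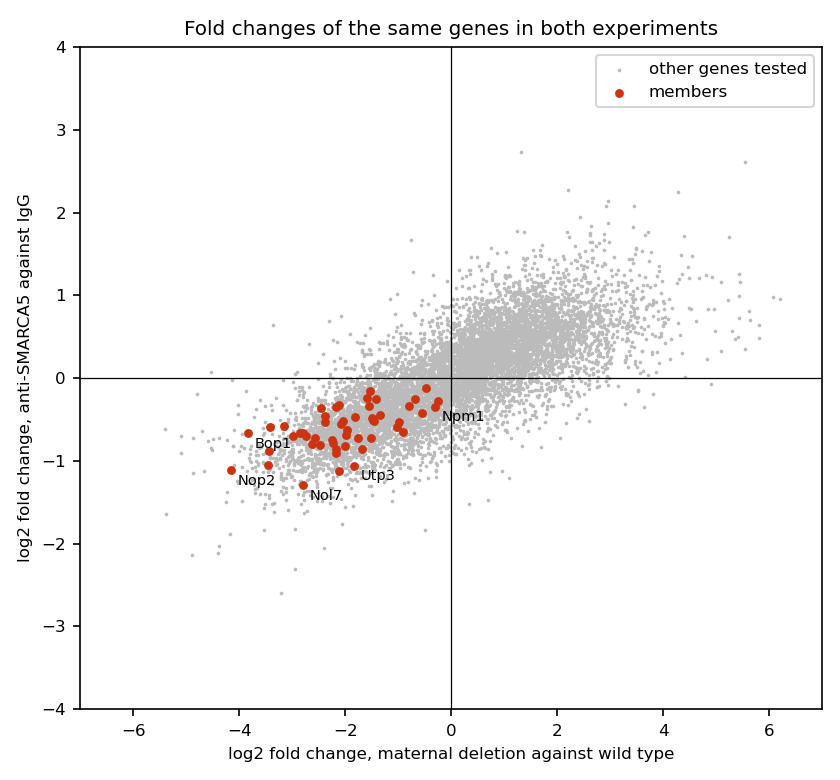
Log2 fold change of each of the 8238 genes tested in both experiments, in maternal deletion against wild type (x axis) and in anti-SMARCA5 against IgG (y axis, without the block), with the 51 members in red. All 51 lie in the lower left part, spread from -4.16 to -0.25 on the x axis and from -1.29 to -0.12 on the y axis.

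Levels among control embryos show how evenly the members are present. In the 10 uninjected embryos of replicate 1 the mean log2 level ran from 6.23 to 7.08, a narrower range than in any other set, and in the 5 of replicate 3 from 5.54 to 7.03. Nol4 had at most 3 counts in all 15 uninjected libraries and Nol3 in 12 of them. A gene that overlaps another of the opposite strand cannot be separated from it where counting ignores strand, and the strand setting is not given in the sources used here. Among the genes named above, Polr1e, Nop56, Dkc1, Nhp2, Bop1, Pes1, Wdr12, Nol3, Nol7, Nol11, Nop14, Rrp7a and Rrp9 overlap such a gene in the deposited coordinates. The member Utp14b overlaps Acsl3 on the same strand.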

How the data were processed

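Polyadenylated RNA of single plate wells was measured as the RNA part of scNMT-seq with Nextera XT, per the labels' protocols. The authors deposited 2 tables of raw read counts per gene (unit: counts), aligned to GRCm38; the submitters' processing notes name Trim Galore 0.6.5, cutadapt 2.3 and HISAT2 2.1.0. Strand, multiple matches and duplicates are not given in the sources used here, nor why counts of 1 and 3 (134662 and 84269 table cells) outnumber 2 and 4 (30228 and 23199). Whether a well held a whole embryo is not stated either, so p-values measure the spread between wells.

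Lines with the same gene identifier were summed. Of 138 libraries, 116 embryo libraries with at least 100000 counts were kept. Each comparison was fitted over all genes with edgeR 4.0.16 (R 4.3.3; TMM, filterByExpr, robust quasi-likelihood F test, Benjamini-Hochberg, adjusted p under 0.05) on its own groups. On simulated data with known changes, the fit of maternal deletion against wild type (7953 genes) called 20 of 95 genes changed 2-fold and 61 of 91 changed 4-fold. The fit of anti-SMARCA5 against IgG (10018 genes) called 35 of 92 and 78 of 90. In these simulations a 2-fold change was missed more often than found. Far more genes were called in the real maternal deletion comparison (4825 of 8518) than were changed in its simulation. That loosens the cut-off set by the adjustment, so the simulated shares do not carry over to it. CPM use TMM-scaled library sizes, and means of log2 levels a pseudocount of 1. Standard errors are the fold change divided by the square root of F. Alternatives were DESeq2 1.42.0, other scalings, filters, depths and left-out replicates. The members, role lists and markers were chosen with earlier results of these data known. Named genes were a core list of each machine plus the 5 largest called falls and rises per comparison; Nol11, Nol10, Nol8, Noc4l and Nol6 were added where a count or a promoter turned on them.

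Replicate numbers mark pools in the labels, and the block used them to pair the groups. The shift from the first to the last shared replicate correlated across genes between the groups at 0.54 (maternal deletion and wild type), 0.59 (anti-SMARCA5 and IgG) and 0.43 (IgG and uninjected). For anti-SMARCA5 and uninjected it was 0.08, so a shift shared by these 2 groups was not shown.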

Additional observations from a re-analysis of the deposited data

Results flagged for a closer look

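The mean log2(CPM + 1) over the 53 members was looked at for single libraries far from the rest in the 7 sets of 4 to 10 libraries that share a group and a replicate number. One library stood out by Dixon's test at the 95% level: well F04 of the uninjected embryos of replicate 3 had 7.03, while the other 4 libraries of that set lay between 5.54 and 5.85. Chance gives such a result in about 1 of 20 sets.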

How the results depend on the processing

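Members fell and did not rise in all alternatives with a called member, except that without a filter on low counts Nol3 was called higher. In the maternal deletion, leaving out a replicate gave 27 to 36 called members instead of 45, the lower number with 36 members tested, and all other alternatives stayed within 1.5 times of 45. Of all genes tested, 20.2% were called lower without replicate 2 and 15.7% without replicate 1, against 26.4% with both. Utp20, at -0.69, ranged from -0.78 to 0.067 when a replicate was left out. For anti-SMARCA5 against IgG (3 members), the count was 7 without a filter, 5 with DESeq2, 26 with the replicate block, 0 to 4 when a replicate was left out, and, as splits added later, 1 in replicate 1 and 16 in replicate 3. The genes called lower moved too, from 136 of 10447 to 708 of 22374 without a filter, 451 of 10447 with DESeq2 and 1426 of 10447 with the block. They were 0 of 9402 to 254 of 10100 when a replicate was left out, 36 of 10507 in replicate 1 and 911 of 9547 in replicate 3. Against uninjected embryos (21 members) the member count was 34 with the replicate block, 0 to 19 when a replicate was left out and 8 in replicate 1. Of all genes tested, 10.4% were called lower without the block, 14.6% with it and 4.50% in replicate 1. Leaving out a replicate gave 0 of 10544 to 1037 of 10283 genes. The difference between the experiments (20 members) fell to 12 with libraries of at least 500000 counts and 10 with the replicate block. The share of all genes called in that direction fell from 8.73% to 3.68% with the block. For the count of 12 that share is not given, so it cannot be read as a change particular to the members. The replicate block changed no other count by over 1.5 times. The cause of these changes was not tested. Scaling by total counts moved the median of all genes from 0.18 to -0.04 in the maternal deletion and from 0.13 to -0.29 against uninjected embryos; the member medians moved to -2.29 and -1.10. Depth limits the low members: Bop1, Nol12 and Rrp15 had at most 3 counts in 20 or more of 28 maternal deletion libraries.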

Other observations

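Among anti-SMARCA5 embryos, the level of Trim21 RNA differed widely, from 0 to 8024 CPM, and the 3 members called against IgG were set against it (log2(CPM + 1) of both, 31 libraries, 3 relations, two-sided permutation tests with Benjamini-Hochberg adjustment). Nol7 was lower where Trim21 was higher (Pearson's r = -0.56, p = 0.002, adjusted 0.007; Spearman's rho = -0.61, p = 0.0004, adjusted 0.001). Without the 2 libraries farthest from the median Trim21 level r was -0.62, and within replicates 1, 2 and 3 it was -0.55, -0.73 and -0.50 (n = 17, 7 and 7). For Utp3, r was -0.43 (permutation p = 0.02, adjusted 0.03) and rho -0.45 (permutation p = 0.01, adjusted 0.02), with -0.37 without the 2 libraries and -0.38, -0.68 and 0.23 within the replicates, so the relation did not hold in replicate 3. For Dkc1, r was -0.15 (permutation p = 0.4, adjusted 0.4) and rho -0.18 (permutation p = 0.3, adjusted 0.3), with -0.19 without the 2 libraries and -0.25, 0.70 and -0.66 within the replicates. These genes were picked for their difference from IgG, and the relation was looked for after the data were seen. The other members were not tested against Trim21, so a relation particular to Nol7 or Utp3 was not shown. In anti-SMARCA5 replicate 1, wells A07, H06 and E06 had the lowest mean log2 levels over all members (3.76, 4.11 and 4.21). Their Trim21 levels were 7539, 8024 and 3977 CPM. Wells G06 and A08, with 6257 and 3588 CPM of Trim21, had means of 5.50 and 5.65. A relation of Trim21 with the mean over all members was not tested. The permutations also pooled the replicates, whose mean log2 levels over all members were 5.66, 5.23 and 4.20 in replicates 1, 2 and 3.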
